A study of Mus musculus with 9 samples.

Results

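The genes followed here are 10 components of the interleukin-6 (IL-6) signaling route in mouse liver: the cytokine gene Il6, the receptor genes Il6ra, Il6st, Osmr and Lifr, the kinase genes Jak1 and Jak2, the transcription factor gene Stat3, and the inhibitor genes Socs1 and Socs3. They were taken by symbol from the deposited count table, and all 10 were found among the 43346 genes listed. Of the 10, 8 had enough counts to be tested, and Il6 and Socs1 did not.

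Whole liver of 12-week-old C57/BL6 mice was profiled by bulk RNA-Seq of polyadenylated RNA in 9 libraries, with 3 mice per group. The baseline group consists of the liver lobes removed at surgery (0 h) from mice given vehicle from 12 h before a 70% partial hepatectomy, in which that share of the liver is resected and the remnant regrows. The vehicle group consists of remnants taken 40 h after surgery from mice kept on vehicle. The NSC group consists of remnants taken at 40 h from mice given NSC87877 at 7.5 mg/kg in each of 2 daily doses on the same schedule. NSC87877 is a small molecule inhibitor of the phosphatases SHP1 and SHP2, the products of Ptpn6 and Ptpn11. No baseline lobes from mice on NSC are part of these data as analysed here. The same 3 baseline livers therefore served for the vehicle and the NSC comparison, and effects of NSC before and after surgery cannot be told apart. Surgery and the time after it were shared by both 40 h groups and absent from the baseline group. Per the paper, the resected tissue was the median and left lateral lobes, so the remnants are other lobes. In comparisons with baseline, a difference between lobes cannot be told apart from an effect of surgery and time.

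As background, IL-6 family cytokines bind a private receptor and a shared signaling chain, gp130, the product of Il6st. The IL-6 receptor is the product of Il6ra, while the oncostatin M receptor (Osmr) and the leukemia inhibitory factor receptor (Lifr) pair with gp130 for other members of the family. Receptor assembly activates JAK kinases, which phosphorylate STAT3, and STAT3 induces Socs3, whose product binds gp130 and JAKs and shuts the signal off. In liver this route drives the acute phase response of hepatocytes and is known as one of the priming signals of regeneration after hepatectomy.

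Osmr and Socs3 were the members that rose at 40 h in both vehicle and NSC livers. The 250 bases before their RefSeq transcription start (mouse build GRCm38.p6) are shown because these genes carry the main change. The Osmr stretch lies at chr15:6874314-6874563 and the Socs3 stretch at chr11:117969367-117969616. Each stretch lies inside the span of its gene in the deposited table (chr15:6813577-6874969 and chr11:117966079-117970047), downstream of the 5' end given there. The stretches are thus upstream of the RefSeq start only, and not of the gene as counted. Both are on the minus strand, are written 5′ to 3′ and end at the base before the start. Capitals mark a match to the STAT-type motif TTCNNNGAA.

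Osmr: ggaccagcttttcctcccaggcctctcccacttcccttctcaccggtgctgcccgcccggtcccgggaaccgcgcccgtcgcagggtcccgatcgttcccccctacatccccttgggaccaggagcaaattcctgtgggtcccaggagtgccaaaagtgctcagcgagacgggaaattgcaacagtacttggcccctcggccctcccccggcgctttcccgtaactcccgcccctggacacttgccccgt

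Socs3: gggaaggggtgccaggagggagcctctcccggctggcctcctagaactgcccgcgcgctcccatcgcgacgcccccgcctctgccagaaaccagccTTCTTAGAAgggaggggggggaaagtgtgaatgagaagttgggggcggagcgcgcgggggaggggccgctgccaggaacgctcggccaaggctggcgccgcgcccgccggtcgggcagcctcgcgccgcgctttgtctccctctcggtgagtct

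The capitalized Socs3 motif, TTCTTAGAA, begins 154 bases before the RefSeq start, within the deposited span of Socs3. TTCNNNGAA reads the same on both strands, and it was found in 8.3% of all 32851 RefSeq promoter windows of 300 bases (250 before and 50 after a start) and in 7.02% of their 250 upstream bases. Among the 11 windows of the 10 members, that of Socs3 was the one with a match. The AP-1-type motif TGANTCA, searched on both strands, was found in 7.81% of all windows and, among the members, in those of Il6 (249 bases before the start) and Osmr (just after the start, outside the printed stretch). The printed stretches had a GC content of 66.0% for Osmr and 71.6% for Socs3, against a median of 52.4% over the upstream bases of all windows. A match is a description of the letters and does not show that a factor was bound.

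Total counts on genes per library were 31187349 to 33943842 at baseline, 27956396 to 42887589 in vehicle livers and 23997363 to 30201051 in NSC livers. Levels below are CPM, counts scaled to library size with TMM factors, and 3 counts corresponded to 0.0751 to 0.117 CPM. Fold changes were tested with edgeR's quasi-likelihood test in 1 fit of the 9 libraries over 15024 genes, and a gene was called at a Benjamini-Hochberg adjusted p under 0.05. Hepatocyte markers had summed levels of 121712 to 126638 CPM at baseline, 91742 to 129340 in vehicle livers and 95015 to 112779 in NSC livers, so hepatocyte transcripts were abundant in every library. In whole liver, a change in the number of cells of a type cannot be told apart from a change in RNA per cell.

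Per unit of gene length, Stat3, Jak1, Lifr, Il6st and Il6ra were the abundant transcripts at baseline, while Osmr and the ligand gene Il6 were low. These levels are deposited FPKM, in which each count is scaled by the length of its gene and the total of its library, the only scale here on which genes can be set against each other. At baseline the order was Stat3 (20.2 ± 1.39 FPKM, SD, n = 3), Jak1 (14.0 ± 0.509), Lifr (13.4 ± 2.04), Il6st (13.1 ± 1.44), Il6ra (11.04 ± 6.81), Socs3 (3.55 ± 1.52), Jak2 (3.05 ± 0.307), Osmr (0.281 ± 0.102), Il6 (0.0935 ± 0.137) and Socs1 (0.0345 ± 0.0403). The livers' ranges separated Stat3 from Jak1, Il6ra from Socs3 and Jak2 from Osmr, and the ranges of all other neighbours in this order overlapped.

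In vehicle livers at 40 h the order was led by Stat3 (26.1 ± 3.81 FPKM) and Socs3 (25.2 ± 4.11), whose ranges overlapped. Socs3 thus stood above Lifr (20.2 ± 3.33), Il6st (17.4 ± 0.496), Jak1 (16.3 ± 1.06), Il6ra (9.87 ± 2.98) and Jak2 (2.70 ± 0.253), although its range overlapped that of Lifr. Osmr was at 1.42 ± 0.116 FPKM, still below every receptor gene it is grouped with. In NSC livers the mean of Socs3 (12.1 ± 1.98 FPKM) stood below those of Stat3 (20.1 ± 3.47), Jak1 (18.4 ± 5.27), Lifr (17.7 ± 1.03) and Il6st (17.7 ± 7.43). Its range there overlapped those of Jak1, Il6st and Il6ra (6.93 ± 3.65), and Osmr was at 1.35 ± 0.809.

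**Figure D1:**
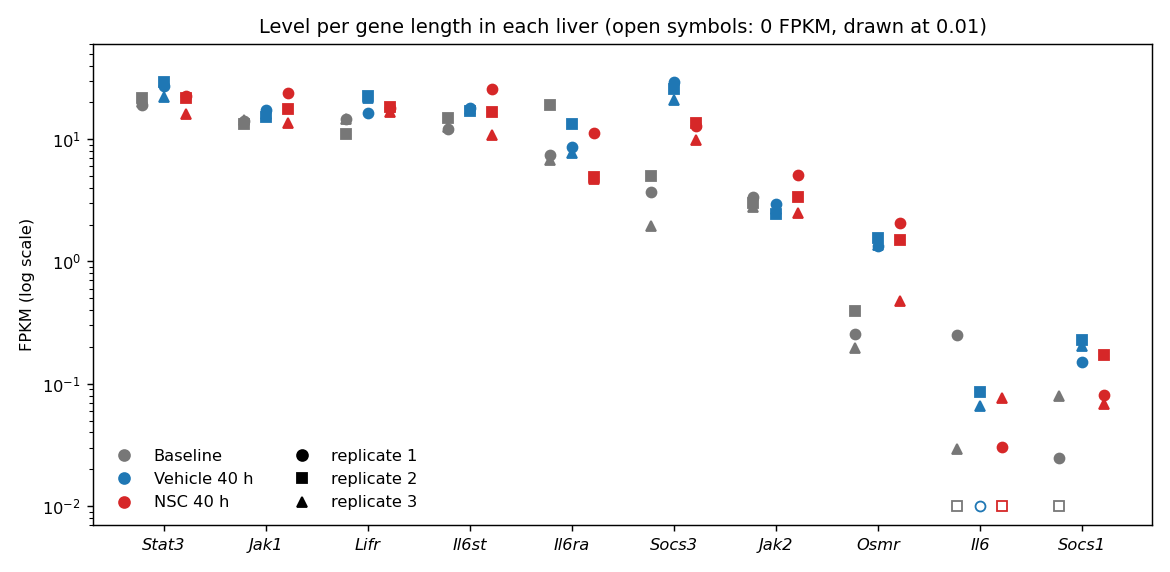
FPKM on a log axis for each of the 10 genes in each of the 9 livers, ordered by baseline mean, with color for the group and shape for the replicate number, and open symbols at 0.01 for values of 0. Socs3 lies between 1.95 and 4.97 FPKM at baseline, between 20.9 and 29.1 in vehicle livers and between 9.83 and 13.6 in NSC livers.

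Il6, the cytokine itself, was at or near the limit of detection in every liver. Gene positions here and below are those of the deposited table, which are compatible with mouse build GRCm38. Il6 (ENSMUSG00000025746, chr5:30013161-30019968, plus strand) had raw counts of 9, 0 and 1 in baseline livers 1, 2 and 3, then 0, 4 and 2 in vehicle livers and 1, 0 and 2 in NSC livers. The 3 groups overlapped, and no change of Il6 was detectable at this depth in whole liver at 40 h. With all genes of at least 1 count kept in the fit (24325 genes), its log2 fold change was -0.82 (SE 1.24) for vehicle against baseline and -1.51 (SE 1.36) for NSC against baseline, with adjusted p of 0.723 and 0.512.

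In vehicle livers at 40 h against baseline, 3 of the 8 tested members rose (Socs3, Osmr and Lifr) and 0 fell, with 3 at an unadjusted p under 0.05. Over all 15024 genes, 12.7% rose and 11% fell in this comparison, and 5566 had an unadjusted p under 0.05. The median log2 fold change was 0.38 over the 8 members and 0.013 over all genes. All 3 vehicle livers were above all 3 baseline livers for 6 of the 8 members and below them for 1, against 24.2% and 22% of all genes. In NSC livers at 40 h against baseline, 2 of the 8 members rose (Socs3 and Osmr) and 0 fell, against 18.2% of all genes that rose and 16.5% that fell. Without NSC liver 3, 4 members were called (Il6st and Jak1 as well). Here the median was 0.26 for the members and 0.013 over all genes, and 3 of the 8 had every NSC liver above every baseline liver, against 24% of all genes. DESeq2 called the same members as edgeR in both comparisons with baseline, and over all genes it called 14.3% higher and 13.8% lower in vehicle livers and 19.6% higher and 18.5% lower in NSC livers. Because these comparisons share their baseline livers, they are not independent of each other.

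In NSC livers against vehicle livers at 40 h, 0 of the 8 members were called in either direction. Of all 15024 genes, 0% were called higher and 0.0399% (6 genes) lower, and 2929 had an unadjusted p under 0.05. Socs3 and Stat3 were the members with an unadjusted p under 0.05. For both of them no NSC liver reached the lowest vehicle liver, which held for 12.2% of all genes. The median log2 difference, NSC minus vehicle, was -0.27 over the 8 members and 0.015 over all genes. DESeq2 called 1 of the 8 in this comparison, Socs3, which was lower in NSC livers. Over all genes DESeq2 called 1.9% higher and 3.13% lower here.

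**Figure D2:**
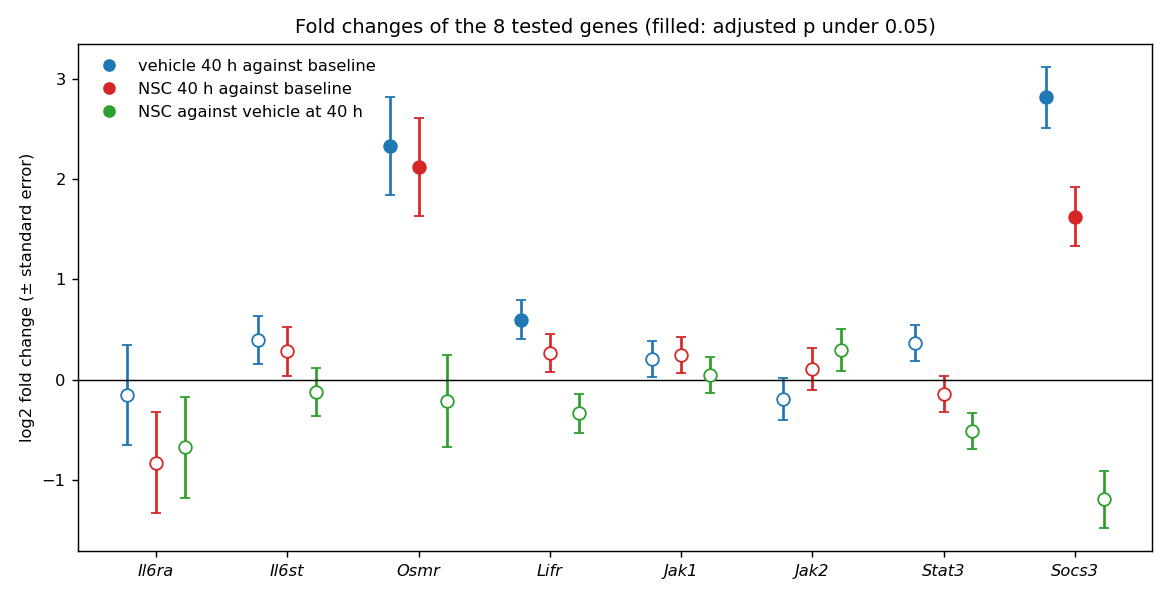
Log2 fold change of each of the 8 tested genes with its standard error, for vehicle against baseline, NSC against baseline and NSC against vehicle, with filled points for an adjusted p under 0.05. Socs3 is at 2.81, 1.62 and -1.19 and Osmr at 2.33, 2.12 and -0.21, while Il6st, Jak1 and Jak2 are between -0.19 and 0.40 throughout.

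Among the receptor genes, Osmr changed most. Osmr (ENSMUSG00000022146, chr15:6813577-6874969, minus strand) was at 3.19, 4.95 and 2.44 CPM in the baseline livers. It was at 15.3, 20.9 and 17.1 CPM in the vehicle livers and at 22.7, 17.7 and 5.40 CPM in the NSC livers. Every liver at 40 h was above every baseline liver, but NSC liver 3 was just above the highest baseline liver while NSC liver 1 was the highest of all 9. The rise was 5.02-fold in vehicle livers (log2 fold change 2.33, SE 0.49, adjusted p = 0.0101) and 4.34-fold in NSC livers (2.12, SE 0.49, adjusted p = 0.0104). NSC and vehicle livers overlapped, with a log2 difference of -0.21 (SE 0.46, adjusted p = 0.831).

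Lifr, the chain that gp130 joins for leukemia inhibitory factor, showed a smaller change. Lifr (ENSMUSG00000054263, chr15:7129559-7197489, plus strand) was at 156, 118 and 155 CPM at baseline, at 161, 260 and 230 CPM in vehicle livers and at 170, 187 and 160 CPM in NSC livers. Vehicle liver 1 lay only slightly above the highest baseline liver, whereas vehicle livers 2 and 3 were well above it. The rise in vehicle livers was 1.52-fold (log2 fold change 0.60, SE 0.19, adjusted p = 0.0406), and the call was lost when any of 6 single livers was left out, among them each of the 3 baseline livers, with values of 0.45 to 0.78 over all 9 livers left out. Every NSC liver was also above every baseline liver, the lowest only slightly. In NSC livers the log2 fold change was 0.27 (SE 0.19, adjusted p = 0.299), and against vehicle it was -0.33 (SE 0.19, adjusted p = 0.355).

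Il6st, which encodes the shared chain gp130, had no call in any comparison. Il6st (ENSMUSG00000021756, chr13:112464070-112510086, plus strand) was at 139, 170 and 144 CPM at baseline, at 188, 208 and 202 CPM in vehicle livers and at 257, 180 and 113 CPM in NSC livers. All vehicle livers were above all baseline livers, whereas the NSC livers spanned the ranges of both other groups. The log2 fold change was 0.40 (SE 0.24, adjusted p = 0.249) in vehicle livers and 0.28 (SE 0.24, adjusted p = 0.384) in NSC livers. The NSC value was -0.04 without NSC liver 1 and 0.54 (adjusted p = 0.0391) without NSC liver 3.

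Il6ra, which encodes the binding chain for IL-6, varied among livers of a group as much as between groups. Il6ra (ENSMUSG00000027947, chr3:89869324-89913162, minus strand) was at 26.0, 65.5 and 23.2 CPM at baseline, at 27.2, 49.3 and 26.8 CPM in vehicle livers and at 33.8, 16.2 and 14.8 CPM in NSC livers. Baseline liver 2 and vehicle liver 2 were the high ones and NSC livers 2 and 3 the low ones, and all 3 groups overlapped. The log2 fold change from baseline was -0.15 (SE 0.50, adjusted p = 0.859) in vehicle livers and -0.82 (SE 0.51, adjusted p = 0.243) in NSC livers. Without baseline liver 2 the vehicle value was 0.48 and the NSC value -0.19, and without NSC liver 1 the NSC value was -1.30.

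The kinase genes were close to level across groups. Jak1 (ENSMUSG00000028530, chr4:101152367-101265282, minus strand) was at 107, 100 and 107 CPM at baseline, at 119, 123 and 121 CPM in vehicle livers and at 157, 125 and 91.6 CPM in NSC livers. The vehicle livers were tightly grouped above baseline by a log2 fold change of 0.21 (SE 0.18, adjusted p = 0.435), and the NSC livers spread to both sides. Jak1 overlaps the annotated span of Raver2 and of 2 other genes, and whether counting used strand is not given in the sources used here. Jak2 (ENSMUSG00000024789, chr19:29251828-29313080, plus strand) was at 17.7, 15.7 and 14.3 CPM at baseline, at 14.1, 13.8 and 14.0 CPM in vehicle livers and at 23.2, 16.5 and 11.7 CPM in NSC livers. Vehicle livers lay just below baseline, with a log2 fold change of -0.19 (SE 0.21, adjusted p = 0.560), and NSC livers overlapped both groups. Against baseline, NSC livers had log2 fold changes of 0.25 for Jak1 (adjusted p = 0.294) and 0.11 for Jak2 (adjusted p = 0.715). Without NSC liver 3, Jak1 was called (0.43, adjusted p = 0.0369), and without NSC liver 1 its value was 0.053 (adjusted p = 0.824).

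Stat3, the transcription factor of the route, had its highest mean level in vehicle livers but passed the test in no comparison. Stat3 (ENSMUSG00000004040, chr11:100885098-100939540, minus strand) was at 187, 214 and 197 CPM at baseline, at 245, 310 and 215 CPM in vehicle livers and at 195, 202 and 145 CPM in NSC livers. Vehicle liver 3 was barely above the highest baseline liver, and NSC liver 3 was the lowest of all. The log2 fold change from baseline was 0.37 (SE 0.18, adjusted p = 0.163) in vehicle livers and -0.14 (SE 0.18, adjusted p = 0.575) in NSC livers. NSC livers were lower than vehicle livers by a log2 difference of -0.51 (SE 0.18, unadjusted p = 0.0160), which did not pass adjustment over all genes (adjusted p = 0.169). The annotated span of Stat3 overlaps that of Stat5a.

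Socs3, the feedback inhibitor, had the largest fold change of the 8 members in vehicle livers and was the member that stood furthest apart between NSC and vehicle. Socs3 (ENSMUSG00000053113, chr11:117966079-117970047, minus strand) was at 11.2, 14.9 and 5.81 CPM at baseline, from raw counts of 355, 488 and 176. It was at 79.6, 82.5 and 62.3 CPM in vehicle livers and at 33.3, 38.5 and 26.7 CPM in NSC livers. The 3 groups did not overlap: every NSC liver lay above every baseline liver and below every vehicle liver. The rise was 7.02-fold in vehicle livers (log2 fold change 2.81, SE 0.30, adjusted p = 0.000231) and 3.08-fold in NSC livers (1.62, SE 0.29, adjusted p = 0.00222). NSC livers were lower than vehicle livers by a log2 difference of -1.19 (SE 0.28, unadjusted p = 0.00173), with an adjusted p of 0.0917 by edgeR and 0.00574 by DESeq2.

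Socs1, the other inhibitor among the members, had too few counts to pass the filter. Socs1 (ENSMUSG00000038037, chr16:10783808-10785536, minus strand) had raw counts of 1, 0 and 3 at baseline, 7, 12 and 7 in vehicle livers and 3, 6 and 2 in NSC livers. In CPM the vehicle livers (0.175, 0.311 and 0.258) were all above the baseline livers (at most 0.099), and NSC liver 2 (0.204) lay among them. In the fit of 24325 genes its log2 fold change in vehicle livers was 2.44 (SE 0.95, adjusted p = 0.0876), and that of NSC against vehicle was -0.97 (SE 0.83, adjusted p = 0.654).

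**Figure D3:**
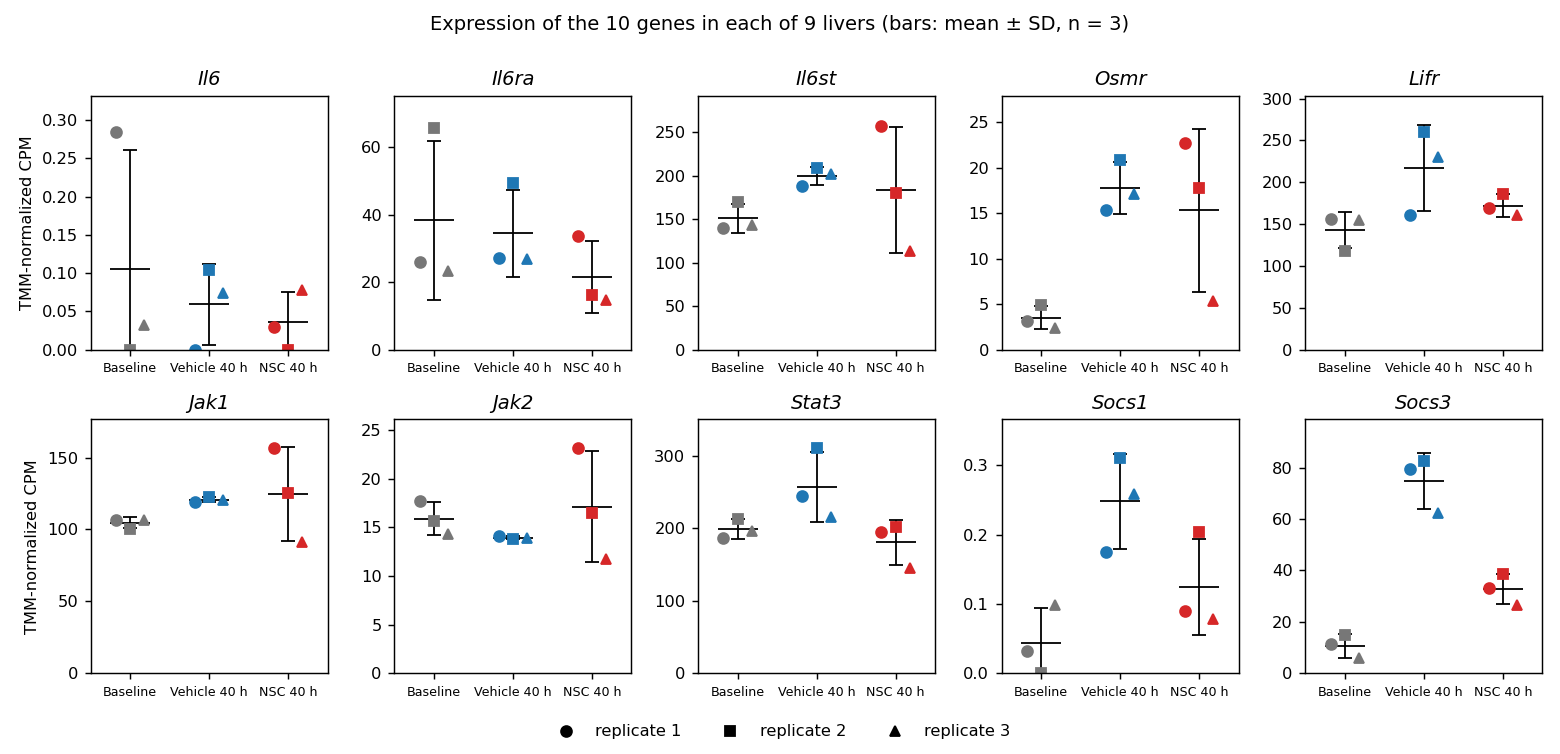
TMM-normalized CPM of each of the 10 genes in each liver, one panel per gene with its own linear axis from 0, symbols for replicates and bars for the mean ± SD (n = 3 per group, lower bars end at 0). The groups are fully separated for Socs3, and both 40 h groups are above baseline for Osmr and Lifr. For Il6st, Osmr, Jak1 and Jak2 the NSC livers are the most widely spread group.

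Over the tested members together, the NSC livers spread more widely than the other groups. The ratio of highest to lowest liver had a median of 1.84 over the 8 tested members in NSC livers, against 1.34 in vehicle livers and 1.28 at baseline. Over all tested genes these ratios were 1.48, 1.34 and 1.31. NSC liver 1 was the highest and NSC liver 3 the lowest for 5 of the 8 members (Il6ra, Il6st, Osmr, Jak1 and Jak2), and the same order held for 22.7% of all tested genes. For Osmr the ratio was 4.21 in NSC livers and 1.36 in vehicle livers, whereas for Socs3 it was 1.44 and 1.33. The NSC group did not have the widest ratio for Il6ra and Socs3 (2.82 and 2.57 at baseline), Lifr (1.62 in vehicle livers) or Stat3 (1.44 in vehicle livers). Leaving out NSC liver 1 raised the number of all genes called between NSC and vehicle from 6 to 994, and Socs3 then had a log2 difference of -1.20 with an adjusted p of 0.0852.

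Likeness of pattern across the 9 livers is given as a description only, since all genes share the libraries and their group means. Il6st and Jak1 had a Pearson correlation of log2 CPM of 0.91 and Osmr and Socs3 one of 0.90 (n = 9), whereas Il6ra and Socs3 had 0.072 and Jak2 and Lifr -0.17. Osmr was also close to Il6st (0.81) and Jak1 (0.76). Of 15023 other tested genes, those most like Il6st were Cbl, 2610203C20Rik and Dopey1 (0.964, 0.960 and 0.959). Those most like Stat3 were Mir6978, AU040320 and Myo5b (0.979, 0.963 and 0.957). Those most like Socs3 were Slx4, Cxcl1 and Pcolce (0.966, 0.961 and 0.960).

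The rest of the pathway was taken from a list of 41 other genes, of which 34 were tested. In vehicle livers 7 of them rose and 3 fell, against 12.7% and 11% of all genes. One of those that rose, Lif, had at most 4 counts in a baseline liver. The median log2 fold change of the 34 was 0.08, and 5 in all were called without baseline liver 1, baseline liver 2 or vehicle liver 3. In NSC livers 6 of the 34 rose and 8 fell, against 18.2% and 16.5% of all genes. The median of the 34 was 0.13 there, and 8 in all were called without baseline liver 3 or NSC liver 2. Between NSC and vehicle 0 of the 34 were called by edgeR, with 6 at an unadjusted p under 0.05, against 2929 of all 15024 genes. DESeq2 called 2 lower, the kinase genes Jak3 and Tyk2, against 3.13% of all genes that it called lower.

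Among the other ligands, 5 of 11 had enough counts. Lif, which encodes leukemia inhibitory factor, was at 0.126, 0 and 0.033 CPM at baseline, at 0.626, 0.700 and 0.369 CPM in vehicle livers and at 0.360, 0.102 and 0.196 CPM in NSC livers. Its baseline levels came from 4, 0 and 1 counts, and the vehicle livers were all higher. Only in the vehicle group did Lif reach 10 counts in all 3 livers, so it passed the filter on low counts through the group in which it was high. Lif rose in vehicle livers (log2 fold change 3.34, SE 0.77, adjusted p = 0.00898), and in NSC livers it had a log2 fold change of 2.00 (adjusted p = 0.0896). Clcf1, which encodes cardiotrophin-like cytokine factor 1, rose in vehicle livers (1.41, adjusted p = 0.0216), and Ctf1, the cardiotrophin-1 gene, fell there (-0.93, adjusted p = 0.0316). Cntf, the ciliary neurotrophic factor gene, rose in NSC livers (0.91, adjusted p = 0.0484). Osm, the ligand gene for the Osmr product, had at most 0.518 CPM in any liver, in vehicle liver 2, and was not tested.

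Of 4 other receptor genes, 3 were tested, and 0 were called in vehicle livers by edgeR or DESeq2, with 0 at an unadjusted p under 0.05. In NSC livers Il11ra1, the IL-11 receptor gene, fell (log2 fold change -0.68, adjusted p = 0.0267), as did Cntfr, the ciliary neurotrophic factor receptor gene (-1.86, adjusted p = 0.0142). Cntfr was at 1.04, 2.66 and 1.15 CPM at baseline, at 1.18, 1.32 and 0.664 CPM in vehicle livers and at 0.510, 0.204 and 0.626 CPM in NSC livers, so its levels were low throughout. Adam10 and Adam17 encode the proteases that shed membrane receptors, the IL-6 receptor among them. Both rose in vehicle livers (0.54 and 0.54, adjusted p = 0.0211 and 0.0191) and in NSC livers (0.91 and 0.70, adjusted p = 0.000929 and 0.00371).

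Of the 2 other JAK genes, Tyk2 was at 27.5, 29.8 and 34.5 CPM at baseline, at 33.7, 31.8 and 27.0 CPM in vehicle livers and at 21.2, 23.4 and 19.8 CPM in NSC livers. All NSC livers were below all other livers, and Tyk2 fell in NSC livers against baseline (log2 fold change -0.51, SE 0.15, adjusted p = 0.0182). Against vehicle its log2 difference was -0.52 (edgeR adjusted p = 0.113, DESeq2 0.0455). Jak3, a JAK mainly of blood cells, did not pass in either comparison with baseline, and its log2 difference between NSC and vehicle was -0.82 (edgeR adjusted p = 0.0979, DESeq2 0.0248). Jak3 was chosen after its values were seen.

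Among the 6 other STAT genes, Stat5b, which carries growth hormone signals in hepatocytes, fell in both vehicle livers (log2 fold change -0.87, adjusted p = 0.0109) and NSC livers (-1.18, adjusted p = 0.00152). It was at 88.6, 47.4 and 84.2 CPM at baseline, at 38.7, 45.5 and 36.1 CPM in vehicle livers and at 31.3, 35.5 and 30.1 CPM in NSC livers. Baseline liver 2 was the low one of its group, yet above every liver at 40 h. Its close relative Stat5a rose in vehicle livers (0.58, adjusted p = 0.0201), and Stat6, the factor of IL-4 signaling, fell in NSC livers (-0.39, adjusted p = 0.0477). Stat5a and Stat5b are near-identical in parts, so reads shared between them make both values less certain.

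Of the 10 other inhibitor genes, 0 were called in vehicle livers by edgeR or DESeq2, and 0 had an unadjusted p under 0.05 there. In NSC livers Socs4 rose (log2 fold change 0.88, adjusted p = 0.0185) and Socs7 fell (-0.44, adjusted p = 0.0454). Socs2 and Cish, the family members best known as targets of STAT5, had log2 fold changes of -0.20 and 0.31 in vehicle livers (adjusted p = 0.818 and 0.719) and of -0.65 and 0.31 in NSC livers (adjusted p = 0.384 and 0.688). Socs2 was at 8.50, 15.6 and 10.6 CPM at baseline, at 4.48, 12.8 and 12.9 CPM in vehicle livers and at 12.7, 5.77 and 3.56 CPM in NSC livers, and the 3 groups overlapped.

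Of the 6 phosphatase and adaptor genes, Ptpn1 and Ptpn2, which encode tyrosine phosphatases that act on JAKs and STATs, rose in both groups. Ptpn1 had a log2 fold change of 0.97 in vehicle livers (adjusted p = 0.00109) and 0.60 in NSC livers (adjusted p = 0.00933), and Ptpn2 had 0.81 (adjusted p = 0.00789) and 0.83 (adjusted p = 0.00453). Gab1, an adaptor that docks SHP2, fell in both (-0.70, adjusted p = 0.0179, and -0.78, adjusted p = 0.00727). Ptpn11, the SHP2 gene, was at 82.8, 70.1 and 80.4 CPM at baseline, at 85.4, 94.5 and 86.8 CPM in vehicle livers and at 93.9, 83.6 and 76.4 CPM in NSC livers, with no call. Ptpn6, the SHP1 gene, was at 20.1, 20.7 and 23.3 CPM at baseline and at 16.0, 16.0 and 14.4 CPM in NSC livers, a fall of 0.47 on the log2 scale (adjusted p = 0.0229). It was called by neither edgeR nor DESeq2 in vehicle livers against baseline or in NSC against vehicle livers. NSC acts on the phosphatase proteins, so these transcript levels do not measure its action.

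A list of 30 genes known to respond to IL-6 and STAT3, most of them acute phase genes of hepatocytes, was tested in full. Baseline liver 2 stood apart over this list, with a summed level of 54464 CPM against 35684 and 38568 in baseline livers 1 and 3. In vehicle livers 18 rose, 1 fell and 11 were not called, against 12.7% of all genes that rose and 11% that fell. The median log2 fold change of the list was 1.41, and without baseline liver 2 the number called was 23 in place of 19. One of those that rose, Timp1, had at most 5 counts in a baseline liver and passed the filter through the 40 h groups. The 4 with the smallest adjusted p were Fgl1 (fibrinogen-like 1, log2 fold change 1.97), Bcl3 (a nuclear partner of NF-kB, 1.89), Fga (fibrinogen alpha chain, 1.61) and Hpx (hemopexin, 1.73). Their adjusted p were 0.00014, 0.000813, 0.000961 and 0.00117. Bcl3 was at 8.47, 16.4 and 10.6 CPM at baseline, at 36.0, 54.7 and 40.7 CPM in vehicle livers and at 31.3, 24.3 and 19.1 CPM in NSC livers. The member of this list that fell was Myc (-1.09, adjusted p = 0.0269), a growth-promoting transcription factor gene.

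In NSC livers 16 of these 30 genes rose and 2 fell, against 18.2% and 16.5% of all genes. The other 12 were not called, and the median of the list was 0.99. The number called fell from 18 to 11 without baseline liver 1, without baseline liver 3 or without NSC liver 2, and was 19 without baseline liver 2. Fgl1 (log2 fold change 1.95), Orm1 (orosomucoid 1, 1.95), Hpx (1.68) and Fga (1.12) had the smallest adjusted p (0.000109, 0.000427, 0.000918 and 0.00433). Orm1 shares sequence with Orm2 and Orm3, which makes its count less certain. Those that fell were Myc (-1.35, adjusted p = 0.00726) and Cebpb (-1.04, adjusted p = 0.0431), a liver transcription factor gene.

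With NSC livers set against vehicle livers, by edgeR 0 of the 30 were called. Of the 30, 8 had an unadjusted p under 0.05, against 2929 of all 15024 genes, and 23 were on the lower side in NSC livers. The median log2 difference was -0.39, against 0.015 over all genes, and 8 of the 30 had every NSC liver below every vehicle liver, against 12.2% of all genes, while 1 had every NSC liver above, against 10.3%. DESeq2 called 3 of the 30, all lower in NSC livers and named here because it called them, against 3.13% of all genes that it called lower. By edgeR, 3 were called without NSC liver 1 and 1 without baseline liver 2. Junb, an AP-1 gene, was at 54.5, 65.5 and 48.5 CPM in vehicle livers and at 10.8, 20.3 and 19.0 CPM in NSC livers (log2 difference -1.75, SE 0.37, edgeR adjusted p = 0.0867, DESeq2 0.000237). Lbp, which encodes lipopolysaccharide binding protein, was at 291, 307 and 288 CPM in vehicle livers and at 160, 157 and 79.4 CPM in NSC livers (-1.16, SE 0.23, edgeR adjusted p = 0.0849, DESeq2 0.000724). Lrg1, a secreted leucine-rich glycoprotein gene, had a log2 difference of -0.99 (edgeR adjusted p = 0.0994, DESeq2 0.0130). For Junb, Lbp and Lrg1, as for Socs3, the 3 NSC livers were all below the 3 vehicle livers.

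The log2 differences between NSC and vehicle over the list ran from -1.75 for Junb to 3.33 for Saa3. Fgl1, Hpx and Orm1 had log2 differences of -0.03, -0.04 and 0.27, with overlapping livers. Saa3, an acute phase gene also expressed by macrophages and chosen after its values were seen, was on the other side, at 28.3, 37.0 and 33.7 CPM in vehicle livers and at 382, 224 and 386 CPM in NSC livers (log2 difference 3.33, SE 1.03, adjusted p = 0.165). Its baseline livers were at 8.25, 107 and 9.27 CPM, so baseline liver 2 stood apart there.

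**Figure D4:**
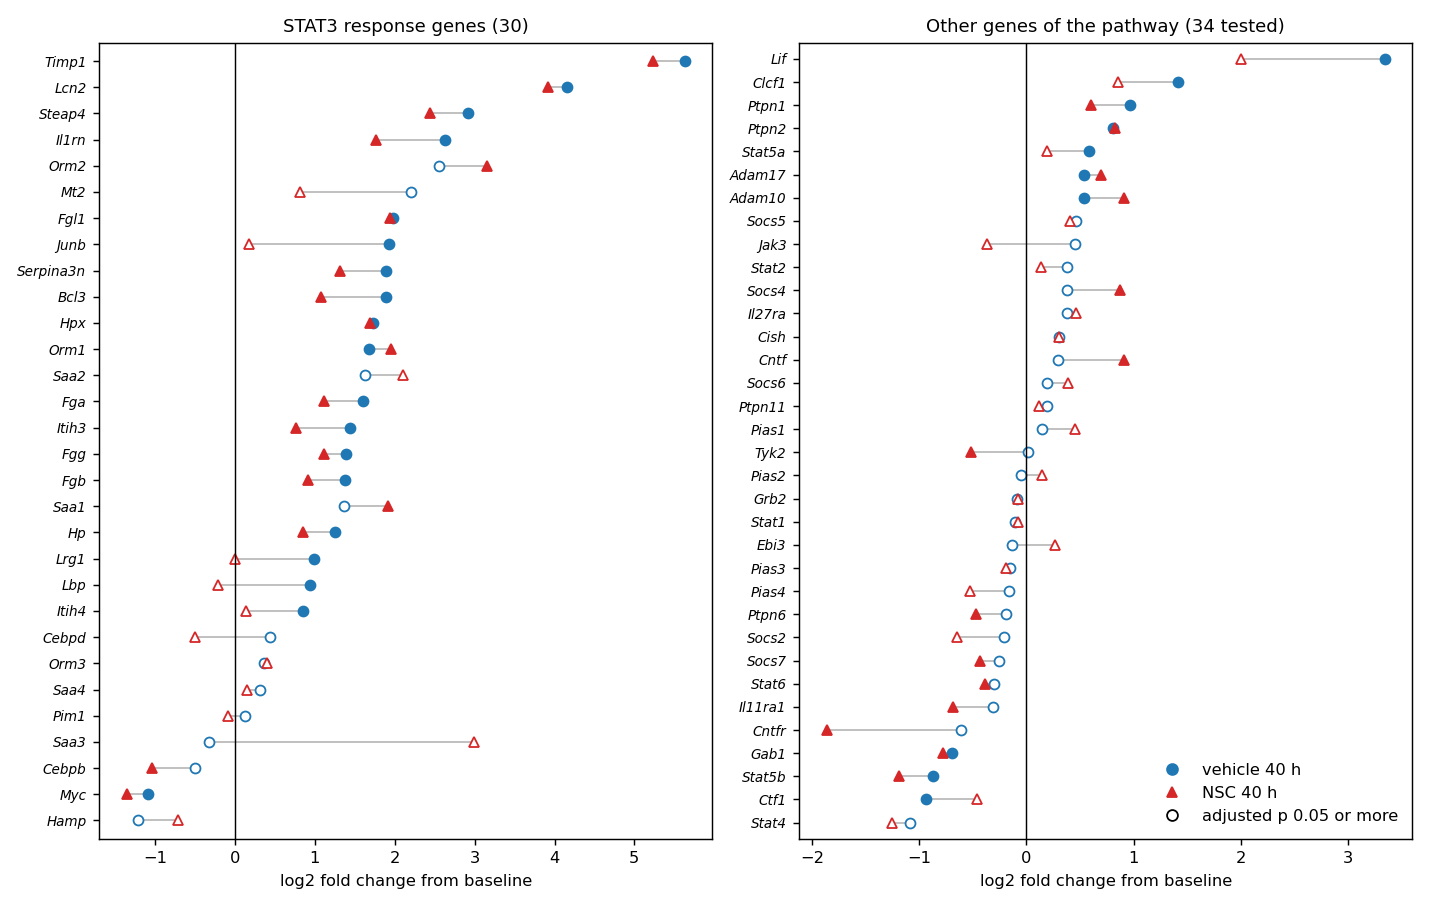
Log2 fold change from baseline of the 30 STAT3 response genes (left) and the 34 other tested genes of the pathway (right) in vehicle livers (circles) and NSC livers (triangles), filled for an adjusted p under 0.05. Both groups share the same baseline livers. Junb, Lrg1 and Lbp are filled at 1.93, 0.99 and 0.94 in vehicle livers and open at 0.18, 0.0016 and -0.22 in NSC livers, while Fgl1 and Hpx nearly coincide.

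Other receptors that signal through JAKs served as a comparison, with 16 of 17 genes tested. In vehicle livers 4 rose and 1 fell, and in NSC livers 5 rose and 1 fell. Of all genes, 12.7% rose and 11% fell in vehicle livers, and 18.2% rose and 16.5% fell in NSC livers. The receptor genes that rose in both were Csf2rb (log2 fold change 1.11 and 1.17), the shared chain of IL-3 family receptors, Il13ra1 (1.04 and 1.29), a chain of the IL-13 receptor, and the interferon gamma receptor genes Ifngr1 (0.77 and 0.84) and Ifngr2 (0.72 and 1.04). Il10rb, a chain of the IL-10 receptor, rose in NSC livers (0.61, adjusted p = 0.0178). Ghr, the growth hormone receptor gene, was at 428, 344 and 363 CPM at baseline, at 123, 167 and 181 CPM in vehicle livers and at 217, 260 and 250 CPM in NSC livers. The 3 groups did not overlap, with a fall of 1.27 on the log2 scale in vehicle livers (adjusted p = 0.000637) and of 0.64 in NSC livers (adjusted p = 0.0151). Between NSC and vehicle 0 of the 16 were called by edgeR and 1 had an unadjusted p under 0.05, Ghr, which was higher in NSC livers (log2 difference 0.63, edgeR adjusted p = 0.114), and DESeq2 called Ghr alone (adjusted p = 0.0205).

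Markers of other cell types moved in the same comparisons, and their part in the values above was not tested. The counts below stand against 12.7% of all genes that rose and 11% that fell in vehicle livers. In NSC livers these shares were 18.2% and 16.5%. Of 8 Kupffer cell and macrophage markers, 2 rose in vehicle livers and 5 in NSC livers, and their summed level was 152 to 223 CPM at baseline, 149 to 272 in vehicle livers and 295 to 489 in NSC livers. Of 8 neutrophil markers 5 were tested, and 2 rose in vehicle livers and 4 in NSC livers, with sums of 2.17 to 7.33, 8.49 to 16.6 and 11.5 to 19.1 CPM. DESeq2 called the same 4 neutrophil markers higher in both groups (S100a8, S100a9, Retnlg and Mmp8). Between NSC and vehicle 0 of the 5 had an unadjusted p under 0.05. Mmp8 had at most 6 counts in a baseline liver and passed the filter through the 40 h groups. Of 7 stellate cell markers 3 rose in vehicle livers and 1 fell in NSC livers, with sums of 102 to 107, 107 to 191 and 75.5 to 115 CPM. Of 8 hepatocyte markers, 3 fell in vehicle livers and 4 in NSC livers, and DESeq2 called 5 lower in each.

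Of 7 sinusoidal endothelial markers, 2 fell in vehicle livers and 0 were called in NSC livers by edgeR or DESeq2, where 0 had an unadjusted p under 0.05. Of 6 cholangiocyte markers, 5 of them tested, 4 rose in vehicle livers and 3 in NSC livers. Of 8 lymphocyte markers, 6 of them tested, 2 fell in vehicle livers and 1 in NSC livers, and of 6 erythroid markers, 5 of them tested, 1 fell in each. By DESeq2, 4 cholangiocyte markers rose in each group, and 5 lymphocyte markers fell in vehicle livers and 2 in NSC livers. With NSC set against vehicle, no marker was called by edgeR in any of these lists. There 5 macrophage, 3 hepatocyte, 3 endothelial, 3 stellate, 2 cholangiocyte and 1 lymphocyte markers had an unadjusted p under 0.05, as had 2929 of all 15024 genes. DESeq2, whose calls are named for that reason, called 4 macrophage markers higher in NSC livers (Emr1, Vsig4, Cd5l and Timd4) and 2 stellate, 1 cholangiocyte and 1 hepatocyte marker lower (Pdgfrb and Col1a1, Krt19, and Cps1).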

How the data were processed

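Whole-liver RNA-Seq was analysed in 9 libraries, 3 per group. Per the labels, RNA was extracted with Trizol and Qiagen columns and made into Illumina TruSeq Stranded mRNA libraries. The submitters' processing notes name STAR 2.6.1 and Subread 1.5.1 (featureCounts), and the authors deposited raw counts per gene without normalization. The authors also deposited FPKM values, which are scaled by gene length and library total. The notes name a human build, whereas the deposited identifiers are mouse ones. Of 42462 genes with an identifier in GENCODE M21 (GRCm38), 33497 (78.9%) have the same coordinates there, so gene positions are given as deposited and as GRCm38-compatible. Of the 10 genes, 6 have identical coordinates.

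The tests used edgeR 4.0.16 (with limma 3.58.1) and, as an alternative, DESeq2 1.42.0, in R 4.3.3. Promoter windows were searched and plots drawn with Python 3.11.15, pandas 2.3.3, numpy 2.4.6 and matplotlib 3.10.9. Genes were kept by filterByExpr (15024 of 43346), libraries were scaled by TMM factors, and a robust quasi-likelihood model with a term for group was fitted to the 9 libraries together. In each of 3 comparisons, p-values were adjusted by Benjamini-Hochberg over all tested genes. Standard errors were derived from the F statistic and the log2 fold change. The paper's methods name edgeR but not its test or model. An exact permutation test of 3 livers against 3 cannot go below a two-sided p of 0.1, so none was used. The fit was tested on simulated counts. Between libraries of a group, chi-square per gene was 23.9 to 146, so none duplicated another. The printed standard errors include the spread between livers that the fit estimated, and precision is set by 3 livers per group. The livers within a group are taken as separate mice from their labels. Whether a baseline lobe and a 40 h remnant came from the same mouse is not given there.

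The 10 genes and all gene lists were chosen with earlier results of these data known. The genes named are the 10 members, up to 4 called genes per list and comparison with the smallest adjusted p, the 3 genes most correlated with each of Il6st, Stat3 and Socs3, and Ghr, Socs2, Cish, Ptpn11 and Ptpn6. Genes outside that rule are said to have been chosen after their values were seen. Promoter windows are from RefSeq (GRCm38.p6), and all 10 members matched. Alternatives were DESeq2, RLE factors, library size only, 2 other filters on low counts, the replicate number as a block, a fit restricted to the 2 groups of a comparison, 2 other thresholds, and each library left out in turn.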

Additional observations from a re-analysis of the deposited data

How the results depend on the processing

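At the 0.05 threshold, the rises of Osmr and Socs3 in vehicle and in NSC livers kept their call in all 16 alternatives run for each. The adjusted p was at most 0.0459 for Osmr and 0.00985 for Socs3. Over all members and comparisons, 364 of 384 alternatives kept both direction and side of the threshold, 7 lost a call, 5 gained one and 8 changed sign. The 7 losses were all of Lifr in vehicle livers, under the replicate block (adjusted p = 0.0545) and without baseline livers 1, 2 or 3, vehicle livers 2 or 3, or NSC liver 2. With a single library left out, the log2 fold change ran from 0.45 to 0.78 for Lifr and from -0.50 to 0.48 for Il6ra in vehicle livers against baseline. In NSC livers against baseline it ran from -0.039 to 0.54 for Il6st and from -0.17 to 0.32 for Jak2. In NSC against vehicle it ran from -0.44 to 0.13 for Il6st, from -0.62 to 0.19 for Osmr and from -0.16 to 0.22 for Jak1, and Il6st was also positive with library size only (0.020). The cause of these changes was not tested. Calls were gained for Il6st in vehicle livers with only the 2 groups compared (adjusted p = 0.0422), for Il6st and Jak1 in NSC livers without NSC liver 3, and for Socs3 between NSC and vehicle by DESeq2 and under the replicate block (-1.20, adjusted p = 0.0433), where its adjusted p over all alternatives was 0.00574 to 0.333 and its direction held in all 16. With library size only, the median log2 fold change of all genes shifted to 0.15 for NSC against baseline and 0.14 for NSC against vehicle.

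Counts of calls moved as follows. At an adjusted p under 0.01, 1 member was called in vehicle and 1 in NSC livers, and 2 to 4 were called in NSC livers with 1 library left out (4 without NSC liver 3). For NSC against vehicle, 1 member was called by DESeq2 and 1 under the replicate block. Of the other pathway genes, 1 and 1 were called in vehicle and NSC livers with an absolute log2 fold change over 1.5 as well, 3 and 6 at an adjusted p under 0.01, and 5 to 10 and 8 to 13 with 1 library left out. For NSC against vehicle, 2 were called by DESeq2 and 1 with every gene of at least 1 count. Of the STAT3 response genes, 11 and 9 passed the fold threshold, 9 passed 0.01 in NSC livers, and 11 to 19 were called there with 1 library left out. For NSC against vehicle, 3 of them were called by DESeq2, 2 with every gene of at least 1 count, 2 with only the 2 groups compared, and 0 to 3 with 1 library left out. Over all genes, the fold threshold left 1085 in vehicle livers (of 3564), 1222 in NSC livers (of 5207) and 3 between NSC and vehicle (of 6), and an adjusted p under 0.01 left 1726, 2975 and 0. With 1 library left out, 2285 to 4538 genes were called in vehicle livers and 0 to 994 between NSC and vehicle (994 without NSC liver 1, 111 without vehicle liver 3). That last comparison had 756 calls by DESeq2, 221 with every gene of at least 1 count, 11 under the replicate block and 1 with library size only.

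Livers with the same replicate number were not shown to be paired. The correlation of their deviations from the group means was -0.048 to 0.134, over 0.1 in 1 of 9 pairs, against -0.115 to 0.066 for 18 other pairs. The replicate block changed the member calls of Lifr and Socs3 given above and no other member call. Limits are the 3 livers per group and, for Il6, Socs1 and Osm, too few counts.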
